A study of Drosophila melanogaster with 6 samples.

Results

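The peaks described here are the 304 that lie on scaffold 4, the assembled part of chromosome 4 of Drosophila melanogaster, out of 49322 peaks in the 6 lists of the series. They were chosen by scaffold name alone. The assay was ChIP-seq, in which chromatin pulled down with an antibody is sequenced. All groups were Kc167 cells, an embryonic (late stage, female) fly line kept in serum-free medium and fixed with formaldehyde, and the labels name no treatment. The 6 groups differ in the antibody, with 1 library each and no replicate: H3K4me3 (46 peaks on chromosome 4), H3K4me1 (62), H3K27ac (64), the kinase JIL-1 (82), H3K9acS10ph (30) and H3K27acS28ph (20). The lists were compared with the same lists on the large arms 2L, 2R, 3L, 3R and X, which hold 46250 peaks. Intervals below cover counting error only and treat neighbouring peaks as independent; variation between chromatin preparations was not measured. Kc167 is 1 established line, so the values describe that line, and peaks were not assigned to genes, so the label was not checked against marker genes.

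Chromosome 4 is the small dot chromosome of the fly. It is known for carrying active genes inside a setting that otherwise resembles heterochromatin, with methylated H3K9, the protein HP1a and, on its active genes, the chromosome-specific protein POF. H3K4me3 marks active promoters, H3K4me1 marks enhancers and the flanks of promoters, and H3K27ac marks both where they are active. JIL-1 phosphorylates histone H3 in interphase and is known in the fly to limit the spreading of heterochromatin. In H3K9acS10ph and H3K27acS28ph an acetylated lysine lies beside a phosphorylated serine.

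Every list but H3K27ac was sparser on chromosome 4 than on the large arms. H3K27ac stood at 48.6 peaks per Mb, against 39.0 to 50.2 on the 5 large arms, and its density was 1.12 times that of the arms together (95% exact interval 0.863 to 1.43). The enhancer mark H3K4me1 stood at 47.1 peaks per Mb, below all 5 arms (69.8 to 90.7), a ratio of 0.592 (0.454 to 0.760). The promoter mark H3K4me3 stood at 35.0 peaks per Mb against 64.7 to 95.1, a ratio of 0.444 (0.325 to 0.593). JIL-1 stood at 62.3 peaks per Mb against 81.5 to 115, a ratio of 0.607 (0.482 to 0.754), which became 0.792 (0.526 to 1.15) with lists cut to equal length.

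The phosphoacetylated marks were sparse as well. H3K9acS10ph had 22.8 peaks per Mb against 43.5 to 68.5 on the arms, a ratio of 0.396 (0.267 to 0.566). H3K27acS28ph had 15.2 peaks per Mb against 20.3 to 30.2, a ratio of 0.565 (0.344 to 0.873). The order of the lists therefore differed by chromosome: on each of the 5 arms H3K27ac had fewer peaks than H3K4me3, H3K4me1 and JIL-1, whereas on chromosome 4 only JIL-1 had more.

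The large arms themselves vary along their length, so they were also divided into 89 consecutive windows as long as the peak-bearing scaffold 4 (1.32 Mb). Of these, 2 windows had no more H3K9acS10ph peaks than chromosome 4, 4 had no more H3K4me3 peaks, 5 no more JIL-1 peaks, 6 no more H3K4me1 peaks and 12 no more H3K27acS28ph peaks. For H3K27ac 61 of the 89 windows had as many peaks or fewer. The low densities are thus found in a few stretches of the arms too. The centromeric end of each large arm was taken from the usual orientation of the assembly, the high end of 2L, 3L and X and the low end of 2R and 3R, and not from the files. Set against the 2 Mb at these ends, the ratio was 0.931 for H3K4me1 (0.703 to 1.21) and 0.884 for JIL-1 (0.694 to 1.11), while it stayed at 0.655 for H3K4me3 (0.473 to 0.886).

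Covered length separated chromosome 4 further from the arms. Peaks of H3K9acS10ph covered 4.10% of it against 12.3% to 21.2% of the arms, and those of H3K4me1 covered 8.22% against 18.7% to 24.6%. H3K4me3 covered 3.99% against 10.5% to 15.5%, JIL-1 6.45% against 10.7% to 16.6% and H3K27acS28ph 2.04% against 3.82% to 5.60%. H3K27ac covered 12.6%, just under the arms at 13.6% to 17.7%, and 28 of the 89 windows were covered as little.

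**Figure D1:**
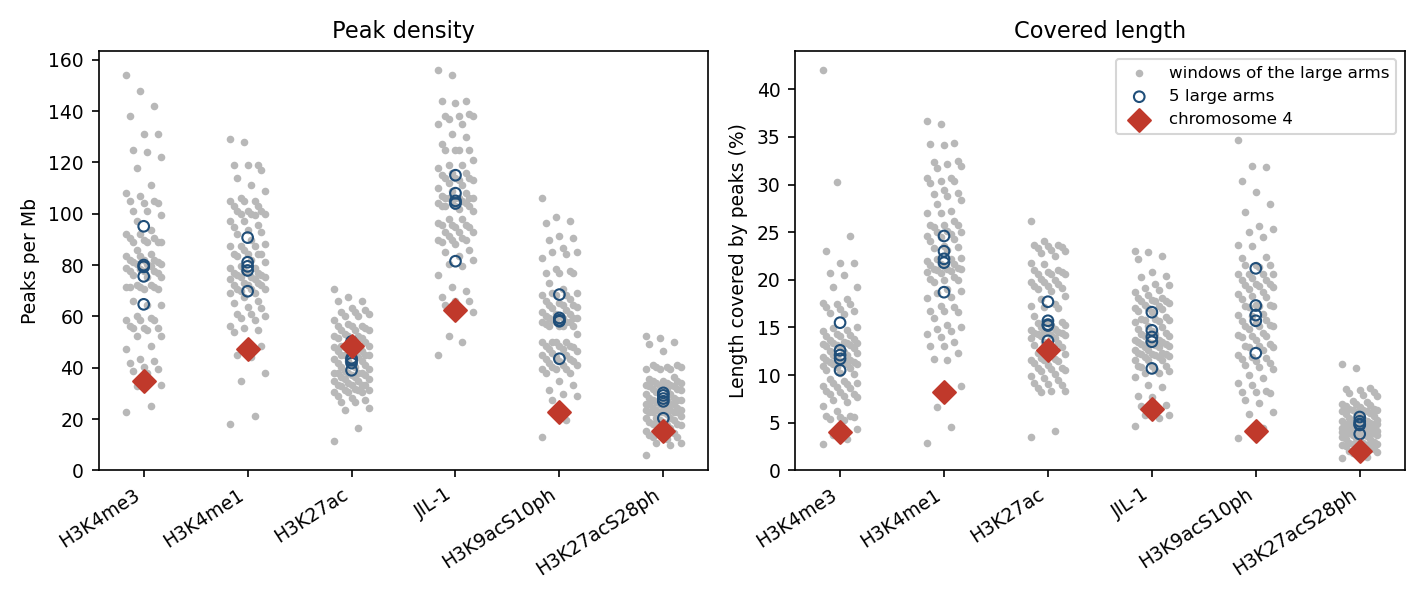
Peaks per Mb (left) and percent of length covered by peaks (right) for each list. Red diamonds are chromosome 4, open circles the 5 large arms and grey points 89 windows of the same length; the diamond lies below all circles in every list but H3K27ac on the left, where it stands at 48.6 peaks per Mb.

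A second scale is the number of genes. The release 6 gene table lists 80 protein-coding genes on chromosome 4 and 13842 on the large arms. The deposited scaffold names are of release 5, so these ratios compare counts from different releases. H3K27ac gave 0.800 peaks per gene on chromosome 4 against 0.338 to 0.438 on the arms. For H3K4me3 the value was 0.575 per gene, within the 0.560 to 0.771 of the arms, and for JIL-1 it was 1.02, within 0.706 to 1.06. For H3K4me1 it was 0.775 (arms 0.605 to 0.827), and for H3K27acS28ph 0.250 (arms 0.176 to 0.298). H3K9acS10ph gave 0.375, just below the lowest arm at 0.377. Per gene, therefore, the H3K27ac count stood above all 5 arms, and the other counts lay within or at the edge of their range.

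Along the chromosome, peaks ran from position 62598 to 1315896. In the release 5 assembly the numbering starts at the centromere side and runs towards the telomere. The 200 kb between 500 and 700 kb were the most densely marked. They held 23 of the 62 H3K4me1 peaks (37.1%), 16 of 46 H3K4me3 peaks (34.8%), 7 of 20 H3K27acS28ph peaks (35.0%) and 8 of 30 H3K9acS10ph peaks (26.7%). JIL-1 with 15 of 82 (18.3%) and H3K27ac with 12 of 64 (18.8%) were spread more evenly.

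H3K4me1 thinned out towards the telomere more than H3K27ac. Up to the middle of the scaffold at 658 kb there were 39 H3K4me1 peaks covering 72.8 kb, and beyond it 23 peaks covering 35.4 kb. H3K27ac had 34 and 30 peaks, covering 88.5 and 77.8 kb. In 100 kb bins, H3K4me1 covered 36.0 kb between 500 and 600 kb, and 1.71 and 0.730 kb in the bins from 1100 to 1200 and from 1200 to 1300 kb. In those same last bins H3K27ac covered 5.98 and 14.3 kb, against 6.95 to 18.6 kb in the bins from 0 to 1100 kb. Other lists were low there too: H3K4me3 covered 1.66 and 0.727 kb, H3K9acS10ph 1.25 and 1.13 kb and JIL-1 4.34 and 2.52 kb. Up to and beyond the middle, however, H3K4me3 covered 26.9 and 25.6 kb, H3K9acS10ph 25.4 and 28.5 kb and JIL-1 41.6 and 43.2 kb. Over the 14 bins the covered lengths of H3K4me1 and H3K27ac had a Spearman correlation of 0.30, within the 0.21 to 0.88 of all pairs of lists. It was 0.56 with bins of 50 kb, 0.68 with bins of 200 kb and -0.06 in the upper 50% of the lists by score, so its size is not settled. These correlations are descriptions. The bins are neighbours on 1 chromosome and all rest on the same libraries.

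**Figure D2:**
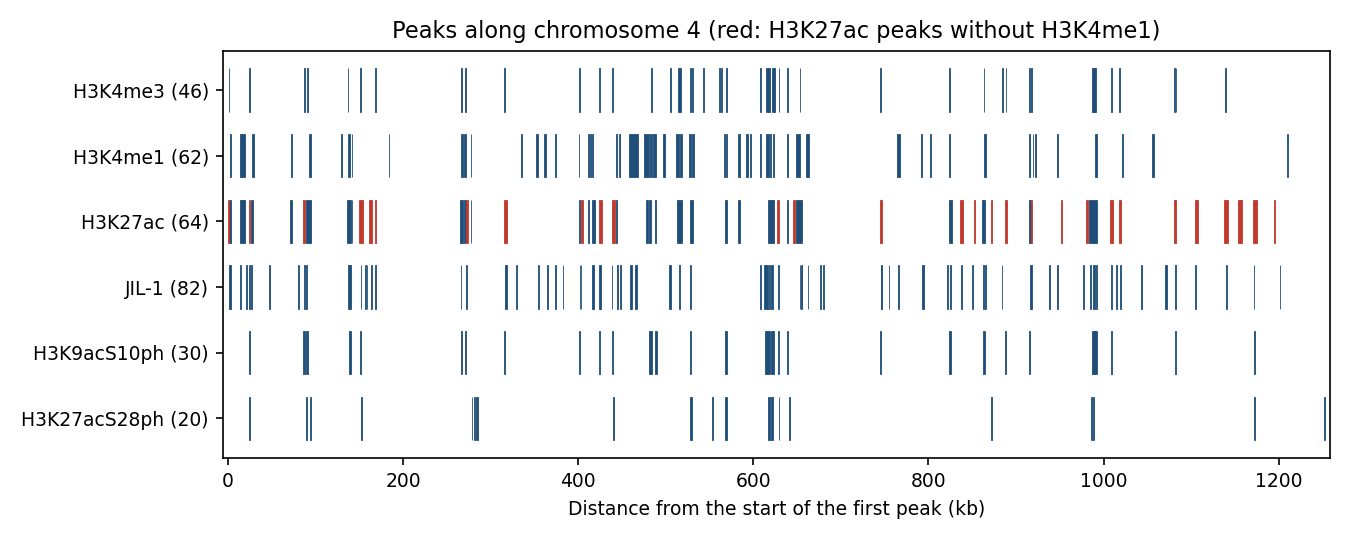
Peaks of the 6 lists along chromosome 4, with the distance in kb from the start of the first peak on the horizontal axis and the number of peaks in brackets. Red bars are the 33 H3K27ac peaks that overlap no H3K4me1 peak; beyond the middle of the scaffold they make up 22 of 30.

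Several long stretches carried no peak of any list. The longest ran from 247172 to 328201 (81.0 kb), followed by 742817 to 806813 (64.0 kb), the 62.6 kb before the first peak, 1273049 to 1314688 (41.6 kb) and 158119 to 192253 (34.1 kb). Within lists, peaks were far apart: the median gap between neighbouring H3K9acS10ph peaks was 37.1 kb on chromosome 4 and 3.58 kb on the arms. For H3K4me3 these medians were 13.8 and 2.40 kb, for H3K4me1 8.50 and 1.39 kb, for JIL-1 7.99 and 2.98 kb and for H3K27ac 7.59 and 4.50 kb.

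Median peak widths on chromosome 4 were below those of all 5 arms in every list. The median H3K4me1 peak was 1249 bp wide against 1739 to 1858 bp on the arms, and the median H3K9acS10ph peak 1470 bp against 2134 to 2359 bp. None of the 89 windows had a median as low as either. In the upper 50% of the H3K4me1 list by score, which left 11 peaks on chromosome 4, the ratio of medians was 0.942 with an interval of 0.560 to 1.69, against 0.689 in the whole list. H3K27ac peaks had a median of 2055 bp (arms 2367 to 2614 bp), H3K27acS28ph 1202 bp (1378 to 1508 bp), H3K4me3 1028 bp (1212 to 1292 bp) and JIL-1 942 bp (1044 to 1126 bp). The ratio of medians to the arms together was 0.813 for H3K27ac (0.714 to 1.12) and 0.828 for H3K27acS28ph (0.708 to 1.07), intervals that included 1. Medians as low occurred in 1 window for H3K4me3, 7 for H3K27ac and 11 each for JIL-1 and H3K27acS28ph.

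Scores, used here as ranks within a list, differed between marks in another way. The score is the authors' own value per peak, taken as a measure of how strongly a peak was called, and it piles up at 3100. H3K4me1 peaks on chromosome 4 had a median percentile of 16.9 within their list, where the arms had 45.5 to 51.8, and 1 of the 89 windows was as low. Their median score was 201 against 1225 on the arms together, and 5 of 62 (8.06%) reached 3100 against 28.9%. H3K27acS28ph peaks had a median percentile of 23.0 (arms 47.3 to 53.1), below all 89 windows, and a median score of 76.5 against 142. By contrast, H3K27ac reached 3100 in 40 of 64 peaks (62.5%) against 58.1% on the arms.

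The other lists kept average ranks. Median percentiles were 54.7 for JIL-1 (arms 47.3 to 53.5), 50.4 for H3K4me3 (48.7 to 53.6) and 44.4 for H3K9acS10ph (47.6 to 52.3). H3K4me3 nevertheless had few peaks at the top of its list. Its upper quartile was 1070 on chromosome 4 and 3100 on the arms, and 4 of 46 peaks (8.70%) reached 3100 against 27.2%.

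**Figure D3:**
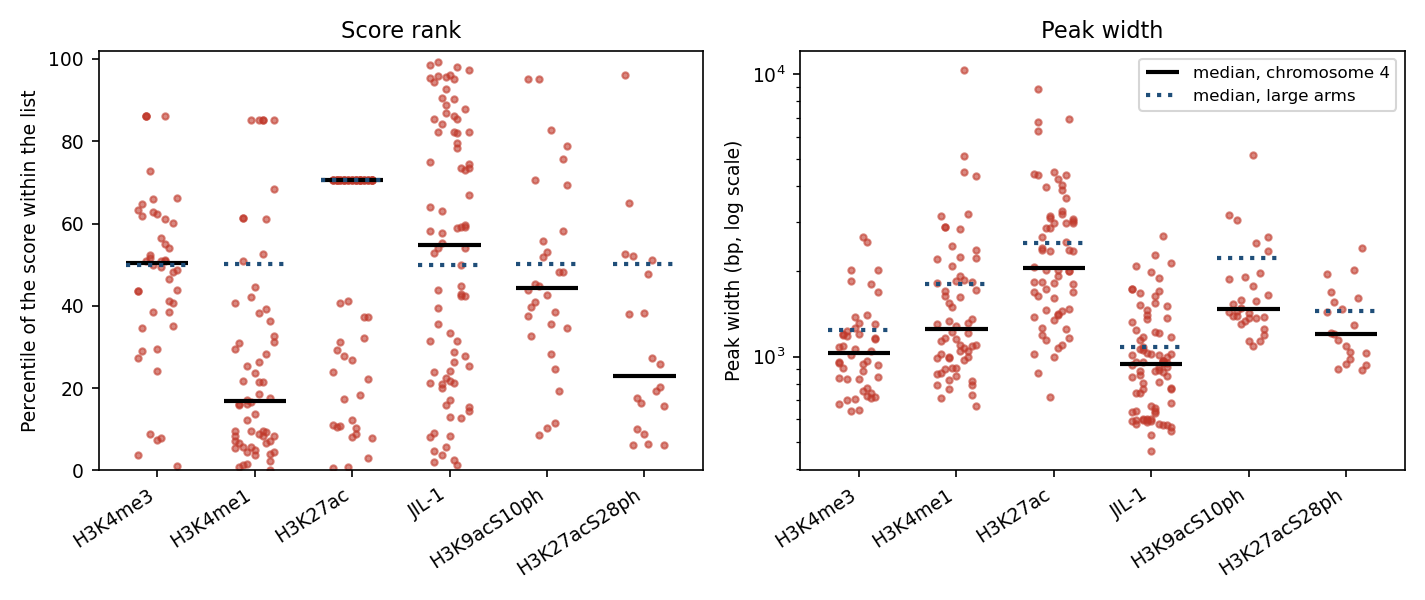
Score percentile within the list (left) and peak width in bp on a log scale (right) for every peak on chromosome 4 (red points). Black lines are chromosome 4 medians and dotted blue lines large-arm medians; H3K4me1 (16.9) and H3K27acS28ph (23.0) lie low on the left, and the 40 H3K27ac peaks at 3100 share 1 percentile, 70.6.

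Chromosome 4 differed from the arms in how H3K27ac and H3K4me1 met. On chromosome 4, 31 of 64 H3K27ac peaks overlapped an H3K4me1 peak by at least 1 bp (48.4%, 95% Wilson interval 36.6 to 60.4), while on the large arms 94.4% did. The remaining 33 peaks (51.6%, 39.6 to 63.4) lacked H3K4me1, against 5.58% on the arms, a difference of 46.0 points (95% Newcombe interval 34.0 to 57.8). The share lacking it was 7.47% on 2L, 8.11% on 2R, 7.18% on 3L, 2.57% on 3R and 2.91% on X. Across the 89 windows it had a median of 2.94%, and in 1 window it was as high as on chromosome 4.

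That window was the first 1.32 Mb of 2R, at its centromeric end, where 41 of 64 H3K27ac peaks (64.1%, 51.8 to 74.7) lacked H3K4me1. The next highest window, on 3L, had 47.7%, and no other exceeded 25%. Over the 2 Mb at all 5 centromeric ends the share was 28.3% (108 of 381, 24.1 to 33.1), but it varied by arm, with 65.6% on 3L, 47.9% on 2R, 20.8% on 2L, 5.88% on X and 4.85% on 3R. The 2R window resembled chromosome 4 in some other respects. Its H3K4me1 peaks had a median score percentile of 14.5, and it had 64 H3K27ac peaks, of which 59.4% reached a score of 3100. It differed in the number of H3K4me1 peaks, 28 where chromosome 4 had 62, and in their overlaps. All 28 overlapped H3K27ac, against 33 of 62 (53.2%) on chromosome 4, and 57.1% overlapped H3K4me3, against 29.0%. It also differed in H3K27acS28ph, with 43 peaks and a median percentile of 57.0 where chromosome 4 had 20 peaks and 23.0. The 2R window was looked at because of its share, so these values are a description.

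The chromosome 4 share was as large among strong H3K27ac peaks and among those of average width. Among peaks with a score of 3100 or more, 23 of 40 lacked H3K4me1 (57.5%, 42.2 to 71.5), against 1.77% on the arms. Among peaks with a width in the middle 50% of the arms, 21 of 37 lacked it (56.8%, 40.9 to 71.3), against 3.72%. With H3K4me1 peaks widened by 1000 bp on each side 30 of 64 still lacked it (46.9%), against 3.80%. The share did depend on the H3K4me1 list, whose peaks ranked low here: when all lists were cut to equal length, leaving 6 H3K4me1 peaks on chromosome 4, it was 95.2% against 36.6% on the arms. With windows of 1000 bp on the peak midpoints in place of the peaks it was 68.8% against 43.9%. Whether H3K4me1 below the authors' calling threshold is present at these peaks was not tested.

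H3K27ac peaks lacking H3K4me1 were wider and scored higher on chromosome 4 than on the arms. Their median width was 2032 bp against 1331 bp, and 23 of 33 (69.7%) reached a score of 3100 against 18.4% of 288. Within chromosome 4 the peaks with H3K4me1 had a median of 2378 bp, and 17 of 31 (54.8%) reached 3100. The distance to the nearest H3K4me1 peak ran from 428 bp to 67.4 kb with a median of 10.6 kb, and it exceeded 10 kb for 18 of the 33. On the arms the median distance was 2.94 kb. Where H3K4me1 was present, it covered a median of 58.9% of the H3K27ac peak on chromosome 4 and 84.2% on the arms.

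Of the 33 peaks, 17 overlapped H3K4me3 (51.5%, 35.2 to 67.5), 23 overlapped JIL-1 (69.7%, 52.7 to 82.6), 12 H3K9acS10ph (36.4%, 22.2 to 53.4) and 6 H3K27acS28ph (18.2%, 8.61 to 34.4). Among the 31 with H3K4me1 the counts were 17, 19, 16 and 6, and all 4 pairs of intervals overlapped. On the arms the same contrast was wide: H3K9acS10ph lay at 30.2% of H3K27ac peaks without H3K4me1 and at 82.8% of those with it, and JIL-1 at 52.8% and 83.6%. H3K4me3 lay at 43.4% and H3K27acS28ph at 17.7% of the arm peaks without H3K4me1. For all 4 marks the intervals of the lacking peaks on chromosome 4 and on the arms overlapped. The 33 peaks were of mixed kinds. In 10 of them (30.3%) H3K4me3, JIL-1 and H3K9acS10ph were all present, against 18.4% of the lacking peaks on the arms. On chromosome 4, 16 of the 33 had neither H3K4me3 nor H3K4me1, against 163 of 288 on the arms. On chromosome 4, 8 overlapped no other list at all (24.2%, against 28.1% on the arms).

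**Figure D4:**
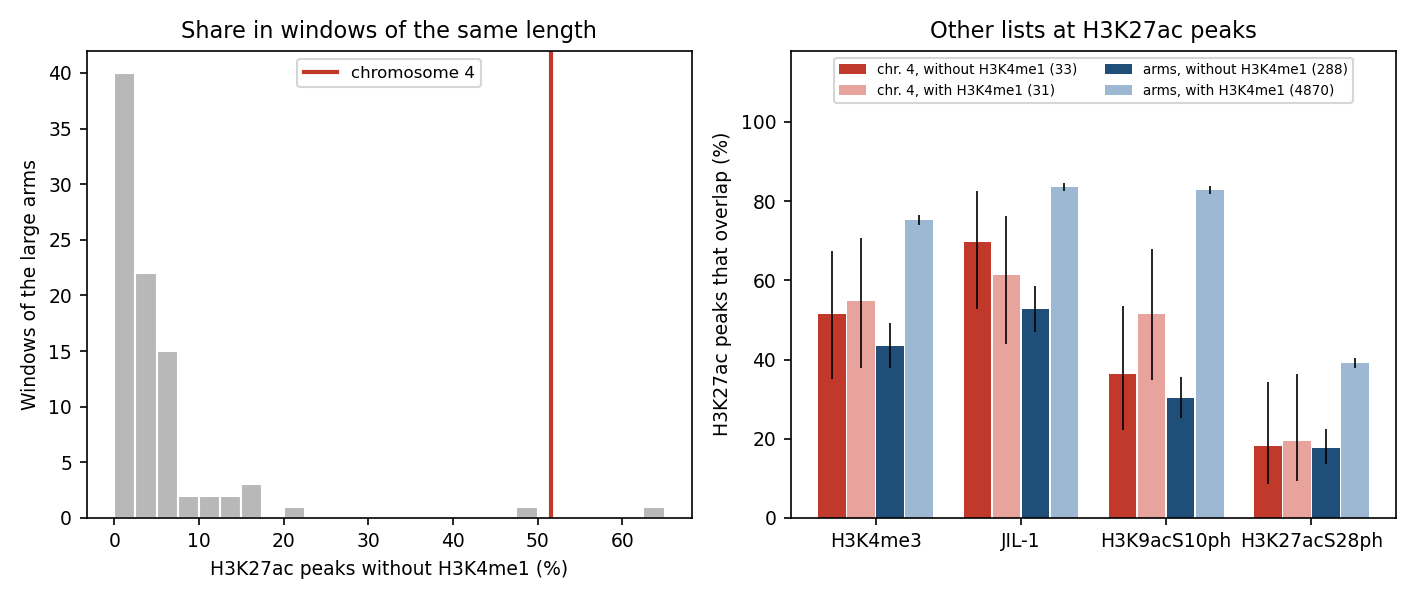
Left, the share of H3K27ac peaks without H3K4me1 in 89 windows of the large arms (bars count windows), with chromosome 4 at 51.6% (red line). Right, the percent of H3K27ac peaks that overlap each other list, by chromosome and presence of H3K4me1, with 95% Wilson intervals and the number of peaks in brackets; the intervals of each red pair overlap and those of each blue pair do not.

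The lacking peaks lay mostly on the telomere side. Up to 658 kb, 11 of 34 H3K27ac peaks lacked H3K4me1 (32.4%, 19.1 to 49.2), and beyond it 22 of 30 (73.3%, 55.6 to 85.8). Past 1100 kb all 9 H3K27ac peaks lacked it, and only 2 H3K4me1 peaks were called there. This last limit was chosen after the values were seen. The widest lacking peak lay there, from 1233117 to 1237606 (4.49 kb), with JIL-1 and both phosphoacetylated marks and no H3K4me3. The next lay from 212210 to 216642 (4.43 kb), with H3K4me3, JIL-1 and both phosphoacetylated marks. The third, from 377514 to 381917 (4.40 kb), carried H3K4me3, JIL-1 and H3K9acS10ph, and the fourth, from 1200618 to 1204880 (4.26 kb), H3K4me3 and JIL-1.

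Most of the other wide examples carried the promoter mark. Those from 486186 to 490174 and from 148270 to 151240 carried H3K4me3, JIL-1 and H3K9acS10ph. Those from 501132 to 504192 and from 689456 to 692428 carried H3K27acS28ph as well. Those from 224233 to 227500 and from 898715 to 901817 overlapped JIL-1 alone. All 10 had a score of 3100.

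Promoter-type peaks showed the same split. Of the 46 H3K4me3 peaks, 39 overlapped H3K27ac (84.8%, 71.8 to 92.4) against 62.4% on the arms, a difference of 22.3 points (9.30 to 30.1). With all lists cut to equal length, which left 7 H3K4me3 peaks on chromosome 4, that difference was -3.15 points (-40.2 to 8.62). For H3K4me1 the direction was opposite: 18 of 46 overlapped it (39.1%, 26.4 to 53.5) against 69.2%, a difference of -30.1 points (-42.8 to -15.6). The 2R window was close to chromosome 4, with 36 of 44 H3K4me3 peaks over H3K27ac (81.8%) and 14 over H3K4me1 (31.8%). Over the 2 Mb at the centromeric ends the shares were 62.5% and 57.9%. The median distance from an H3K4me3 peak to the nearest H3K4me1 peak was 1038 bp on chromosome 4 and 0 on the arms, and 14 of 46 (30.4%) lay over 5 kb from one, against 12.7%. H3K4me3 peaks were also more often enclosed: 36 of 46 lay wholly inside an H3K27ac peak (78.3%, 64.4 to 87.7), against 40.0%.

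JIL-1 and the phosphoacetylated marks were each found at a part of the H3K4me3 peaks. JIL-1 overlapped 34 of 46 (73.9%, 59.7 to 84.4; arms 67.9%) and H3K9acS10ph 29 of 46 (63.0%, 48.6 to 75.5; arms 72.6%). Differences of 6.05 points (-8.15 to 16.6) and -9.56 points (-24.0 to 2.91) included 0. H3K27acS28ph overlapped 10 of 46 (21.7%, 12.3 to 35.6; arms 29.0%), a difference of -7.26 points (-16.8 to 6.61). In the upper 50% of the lists by score the H3K9acS10ph difference was -29.7 points (-48.3 to -10.4), and against the centromeric 2 Mb the H3K27acS28ph difference was -15.5 points (-25.9 to -1.13). The 4 H3K4me3 peaks at 3100 lay from 86663 to 88062, from 590411 to 591646, from 1050512 to 1051697 and from 691533 to 692366, and each overlapped H3K27ac, JIL-1 and both phosphoacetylated marks. Nearly all such peaks on the arms overlapped H3K27ac (2544 of 2547 at 3100 or more) and H3K9acS10ph (2478 of 2547). The arm shares for JIL-1 and H3K27acS28ph at such peaks are not given here.

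H3K4me1 peaks on chromosome 4 overlapped the other lists less often than on the arms. They overlapped H3K4me3 in 18 of 62 cases (29.0%, 19.2 to 41.3) against 66.3% on the arms, and H3K27ac in 33 of 62 (53.2%, 41.0 to 65.1) against 71.0%. They overlapped JIL-1 in 24 (38.7% against 72.0%), H3K9acS10ph in 17 (27.4% against 69.0%) and H3K27acS28ph in 5 (8.06% against 31.8%). All 5 difference intervals lay below 0. With 1000 bp windows the difference over H3K27ac was 0.696 points (-9.65 to 13.1), and its interval also included 0 in the upper 50% of the lists (-44.3 to 5.25) and when 50% of the shorter peak had to be shared (-22.7 to 1.51). Over JIL-1 the interval included 0 with lists of equal length (-48.0 to 12.5). None of the 29 H3K4me1 peaks without H3K27ac overlapped H3K9acS10ph or H3K27acS28ph (95% interval 0 to 11.7% for each). On the arms 23.1% and 2.44% of such peaks did, so for H3K27acS28ph the arm share lay inside that interval. Of the 62 peaks, 20 overlapped no other list (32.3% against 14.7% on the arms).

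Enhancer-type sites, taken as H3K4me1 peaks with H3K27ac at least 500 bp from any H3K4me3 peak, numbered 14. They were small and weak, with a median width of 1162 bp and a median score of 160, against 3406 bp and 3100 for the 699 on the arms. JIL-1 lay at 4 of the 14 (28.6%, 11.7 to 54.6) against 63.4% on the arms, H3K9acS10ph at 2 (14.3%, 4.01 to 39.9) against 48.1%, and H3K27acS28ph at 1. At the 28 H3K4me1 sites with neither H3K27ac nor nearby H3K4me3, JIL-1 lay at 8 (28.6%, 15.3 to 47.1), against 30.7% on the arms. The sites with and without H3K27ac thus had the same JIL-1 share on chromosome 4, each with a wide interval, and the difference between them was not tested.

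A few H3K4me1 peaks were exceptions in strength. The widest on chromosome 4, from 520760 to 531100 (10.3 kb, score 3100), held 3 JIL-1 peaks and no H3K27ac, and it was the widest merged region of the chromosome. The next, also at 3100 and ordered by width, were the peak from 77054 to 82198 (5.14 kb), with H3K27ac and JIL-1, and that from 827096 to 829922 (2.83 kb), with JIL-1 alone. Of the 5 H3K4me1 peaks at 3100, 3 lacked H3K27ac, against 361 of 2736 at 3100 or more on the arms.

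H3K9acS10ph followed H3K27ac without exception. All 30 of its peaks on chromosome 4 overlapped H3K27ac (95% interval 88.6% to 100%), against 69.8% on the arms, and 20 lay wholly inside an H3K27ac peak (66.7%, 48.8 to 80.8) against 21.6%. The difference in overlap was 30.2 points (18.8 to 31.3). It was 13.8 points with lists of equal length, which left 9 H3K9acS10ph peaks on chromosome 4, and the interval then included 0. H3K4me3 lay at 27 of the 30 (74.4% to 96.5%; arms 74.1%) and H3K4me1 at 15 (33.2% to 66.8%; arms 80.4%). With lists of equal length the H3K4me3 difference turned from 15.9 to -4.90 points. In the 2R window 37 of 41 H3K9acS10ph peaks overlapped H3K27ac (90.2%), with 85.4% over H3K4me3 and 41.5% over H3K4me1. Over the 2 Mb at the centromeric ends these shares were 66.7%, 71.1% and 68.8%. Seen from H3K27ac, 28 of 64 peaks on chromosome 4 overlapped H3K9acS10ph (43.8%, 32.3 to 55.9), against 79.8% on the arms and 48.4% in the 2R window. Its strongest peaks lay from 86418 to 88292, from 590284 to 591863 (both at 3100) and from 676558 to 681715 (score 1832).

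JIL-1 is known to phosphorylate serine 10 of histone H3, the residue read by the H3K9acS10ph antibody. JIL-1 lay at 23 of the 30 H3K9acS10ph peaks (76.7%, 59.1 to 88.2; arms 73.5%), and 25 of the 82 JIL-1 peaks carried H3K9acS10ph (30.5%, 21.6 to 41.1), against 55.9% on the arms, a difference of -25.4 points (-34.3 to -14.7). The lists have unequal length, 82 and 30 peaks here and 12213 and 6843 on the arms. With 1000 bp windows the difference was -10.4 points (-18.8 to 0.133). H3K9acS10ph peaks with and without JIL-1 had median scores of 238 and 267 on chromosome 4, and 620 and 107 on the arms.

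JIL-1 overlapped H3K27ac in 48 of 82 cases (58.5%, 47.7 to 68.6) against 53.8% on the arms, a difference of 4.72 points (-6.13 to 14.8) that was 15.6 points (5.23 to 26.3) with 1000 bp windows. It overlapped H3K4me1 in 26 (31.7%, 22.6 to 42.4) against 64.9%. The 48 peaks at H3K27ac had a median score of 369 and the other 34 a median of 87.0; on the arms these medians were 290 and 95.9. Outside all of H3K4me3, H3K4me1 and H3K27ac lay 21 JIL-1 peaks (25.6%, 17.4 to 36.0), the same share as the 25.6% on the arms. None of these 21 overlapped a phosphoacetylated mark. On the arms this also held for most such peaks, 2886 of 3122. The strongest JIL-1 peaks lay from 88908 to 90432 (score 3100, at H3K27ac), from 999971 to 1001295 (score 3061, at no other list) and from 855264 to 857156 (score 2716, at H3K4me1).

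H3K27acS28ph had the fewest peaks on chromosome 4. Of its 20 peaks, 11 overlapped H3K9acS10ph (55.0%, 34.2 to 74.2; arms 84.4%), 5 overlapped H3K4me1 (11.2% to 46.9%; arms 82.8%), and 8 overlapped JIL-1 (40.0%, 21.9 to 61.3; arms 77.6%). H3K27ac lay at 14 (70.0%, 48.1 to 85.5; arms 82.2%), a difference of -12.2 points (-34.1 to 3.34). The difference over H3K9acS10ph was -29.4 points (-50.2 to -10.2), and its interval included 0 with 1000 bp windows (-8.13 points), in the upper 50% of the lists (-20.7 points) and against the centromeric 2 Mb (-16.1 points). Every one of the 8 peaks at JIL-1 also overlapped H3K9acS10ph, as did 2346 of the 2485 such peaks on the arms.

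Its top peak stood far above the rest. It lay from 86787 to 88221 with a score of 1127, at the same place as a top H3K4me3 and the top H3K9acS10ph peak, with H3K27ac and JIL-1 and without H3K4me1. The next had scores of 213 (590497 to 592192) and 152 (679543 to 681498) and overlapped all 5 other lists. Another 6 overlapped no other list (14.5% to 51.9%; arms 8.90%), with scores from 54.8 to 107. Of these, 3 lay in a row between 340955 and 347965, the last of them 2.42 kb wide, and 1 was the final peak of the scaffold, from 1314689 to 1315896. These 4 were picked out after the values were seen.

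**Figure D5:**
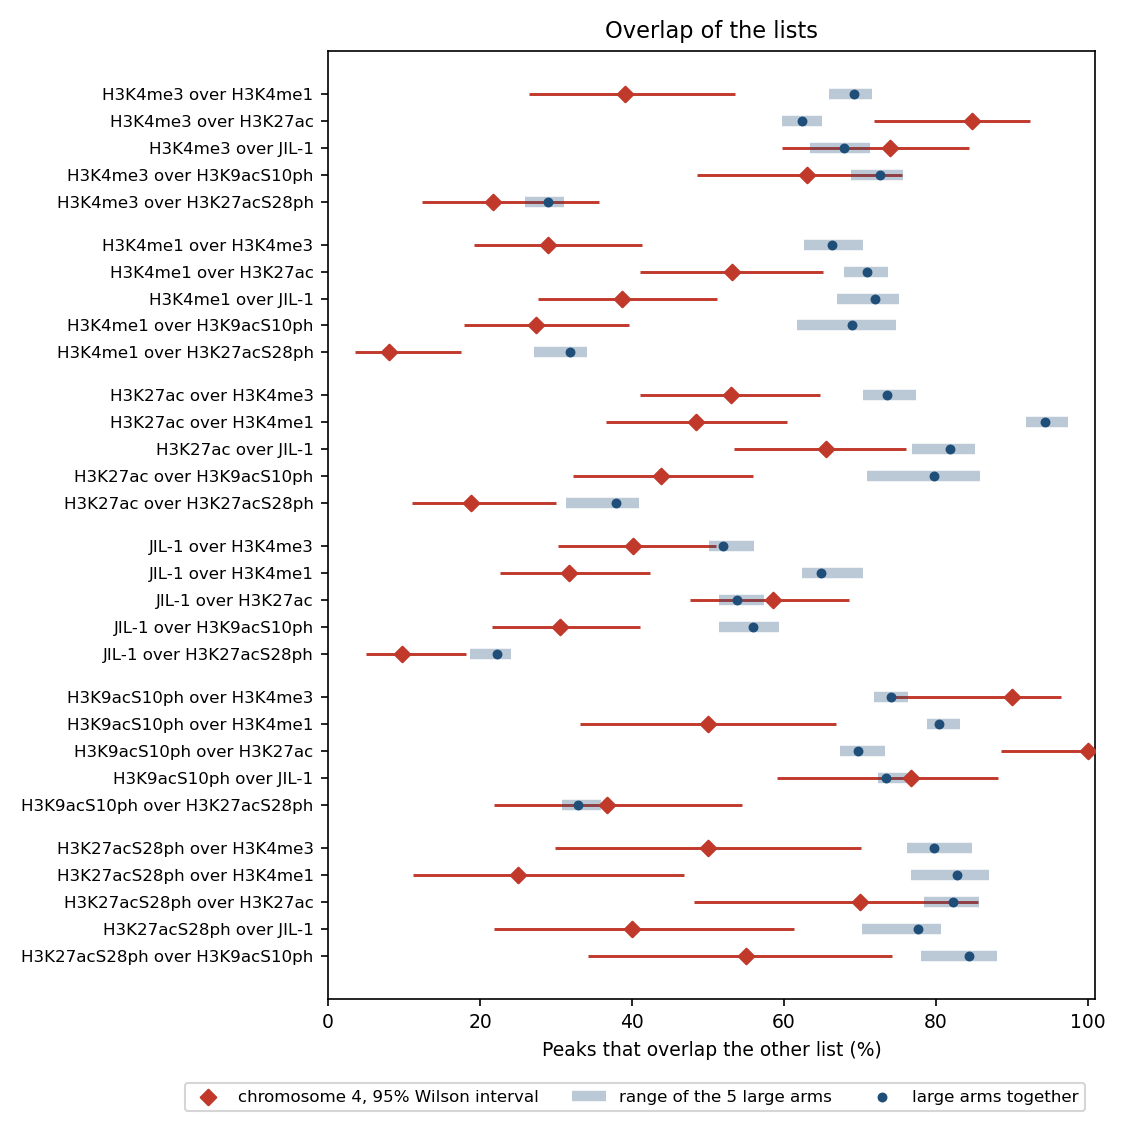
Percent of the peaks of one list that overlap another by at least 1 bp, for the 30 ordered pairs. Red diamonds with 95% Wilson intervals are chromosome 4, blue points the large arms and blue bands the range of the 5 arms; the diamonds for overlap with H3K4me1 lie left of the band in all 5 pairs, and the H3K9acS10ph over H3K27ac diamond is at 100%.

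Over the 30 ordered pairs of lists, 20 difference intervals lay below 0, 3 above it and 7 included it. The 3 above were H3K4me3 over H3K27ac, H3K9acS10ph over H3K27ac and H3K9acS10ph over H3K4me3. All 5 pairs over H3K4me1 lay below 0. For H3K9acS10ph over H3K4me3 the interval of 0.211 to 22.5 barely cleared 0, and it included 0 in the upper 50% of the lists and against arms without their centromeric 2 Mb as well. Other calls ended with 1000 bp windows: H3K9acS10ph over H3K4me1 (-10.3 points, -25.1 to 7.60), H3K27acS28ph over JIL-1 (-20.4, -39.7 to 0.419), JIL-1 over H3K4me3 (-6.18, -16.2 to 4.67) and JIL-1 over H3K27acS28ph (-6.83 points). H3K27acS28ph over JIL-1 also included 0 in the upper 50% of the lists (-11.3 points) and with lists of equal length (-17.3 points). Against the centromeric 2 Mb the intervals of H3K27ac over H3K4me3 (-9.08 points), H3K27ac over JIL-1 (-7.34), H3K27acS28ph over H3K4me3 (-13.8) and JIL-1 over H3K4me3 (-9.83) included 0, and in the upper 50% of the lists so did that of H3K27acS28ph over H3K4me3 (-18.2).

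Merging overlapping peaks of all lists gave 122 regions on chromosome 4, or 92.7 per Mb against 88.6 to 114 on the arms, a ratio of 0.903 to the arms together (0.749 to 1.08). The regions covered 20.5% of chromosome 4 and 33.2% of the arms. The interval of the region density thus included equality with the arms. All 6 lists met in 5 regions (4.10%, 1.76 to 9.24) against 12.7% on the arms, a difference of -8.65 points (-11.1 to -3.48). Regions with 5 lists were 9.84% against 9.65%, and regions with 4 lists 9.02% against 5.30%, with difference intervals that included 0. A single list made up 59 regions (48.4% against 50.2%). JIL-1 alone was 21 (17.2% against 23.6%), H3K4me1 alone 20 (16.4% against 11.4%) and H3K27ac alone 8 (6.56% against 0.663%). H3K27acS28ph alone was 6 (4.92% against 2.33%) and H3K4me3 alone 4 (3.28% against 9.52%). No region held H3K9acS10ph alone, against 2.71% on the arms.

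Several combinations with H3K27ac and without H3K4me1 made up a larger share of all regions than on the arms. Regions with H3K4me3, H3K27ac, JIL-1 and H3K9acS10ph but no H3K4me1 numbered 10 (8.20%, 4.51 to 14.4), against 46 of 12214 on the arms (0.377%). Regions with these 4 marks and H3K4me1 numbered 12 (9.84%, 5.72 to 16.4), against 21.4%. H3K27ac alone was 6.56% of regions (3.36 to 12.4) against 0.663%, and H3K27ac with JIL-1 alone 4.10% (1.76 to 9.24) against 0.385%. A larger share was not limited to combinations without H3K4me1. Regions of H3K4me1 and H3K27ac only were 4.92% (2.27 to 10.3) against 1.07%. Regions of H3K4me1, H3K27ac and JIL-1 only were 4.10% (1.76 to 9.24) against 1.26%. Of the 63 possible combinations 23 occurred on chromosome 4.

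The 5 regions with all 6 lists were spread over the chromosome. The largest, from 1046112 to 1055067 (8.96 kb), held 14 peaks, among them 4 of H3K4me3, 3 of JIL-1, 3 of H3K9acS10ph and 2 of H3K27acS28ph under 1 H3K27ac peak. The others lay from 151376 to 158118 (6.74 kb), from 676555 to 682992 (6.44 kb), from 588897 to 594814 (5.92 kb) and from 683308 to 686352 (3.04 kb). A pair of wide regions lacked both phosphoacetylated marks and held H3K4me3, H3K4me1, H3K27ac and JIL-1, from 711151 to 718759 (7.61 kb) and from 574335 to 581565 (7.23 kb). The widest region on chromosome 4 was 10341 bp long and the widest on the arms 74915 bp. Among regions of a single list the widest were an H3K4me1 peak from 653976 to 656843 (2.87 kb), an H3K27ac peak from 1215961 to 1218377 and an H3K27acS28ph peak from 345549 to 347965 (both 2.42 kb), and H3K4me1 peaks from 424169 to 426422 (2.25 kb) and from 558957 to 560805 (1.85 kb).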

How the data were processed

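Per the labels' protocols, chromatin of Kc167 cells was fixed with 1% formaldehyde for 10 min, sonicated to 200 to 1000 bp and size selected at 200 to 300 bp. Per the submitters' processing notes the aligner was Bowtie 0.12.5. The deposited lists, 1 per antibody, give each peak a start, an end and the authors' score; peak names carry the name MACS. For the score's scale, any input control, the depth and the build, a statement is not given in the sources used here. Scaffold names are those of release 5, and the gene table is of release 6, so no positions were matched to genes and no sequence is shown.

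Scaffold length was the largest peak end in any list. Overlap meant at least 1 bp. Score percentiles were taken within a list over the large arms and chromosome 4. Shares have 95% Wilson intervals, differences Newcombe intervals and density ratios exact conditional intervals. Intervals of median ratios use binomial order statistics of the chromosome 4 peaks. With 1 library per antibody no p-value was computed. The functions were tested on simulated data. Named regions are the 3 highest-scoring peaks per list, the 5 widest merged regions, single-list regions and empty stretches, and the 10 widest H3K27ac peaks lacking H3K4me1. The members, lists and measures were chosen with earlier results of these data known. Python 3.11.15, numpy 2.4.6, pandas 2.3.3 and scipy 1.17.1 were used.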

Additional observations from a re-analysis of the deposited data

How the results depend on the processing

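Read depth behind the lists is unknown, and the 20 to 82 peaks per list on chromosome 4 limit precision. No paired analysis was possible because each antibody had 1 library, and for the same reason leaving out a library was not possible. Autosomal arms without X, arms without their centromeric 2 Mb, scaffold length from first to last peak and merging within 500 bp moved none of the values they were applied to beyond its interval. Other bin lengths changed the correlation of H3K4me1 with H3K27ac, as given above, and its size is not settled. With arms lacking their centromeric 2 Mb, the interval of H3K9acS10ph over H3K4me3 came to include 0. Restriction to H3K27ac scores of 3100 or more, to middle widths and to widened H3K4me1 peaks was chosen after seeing the data. The cause of the changes below was not tested.

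With only the higher-scoring 50% of every list, density ratios were 0.209 for H3K4me1 and 0.281 for H3K27acS28ph, covered ratios 0.191 for H3K4me1, 0.165 for H3K9acS10ph and 0.200 for H3K27acS28ph, and width ratios 0.942 for H3K4me1, 0.686 for H3K4me3, 0.577 for H3K9acS10ph and 0.750 for JIL-1. The lacking share was 92.5% against 18.0% on the arms, with 11 H3K4me1 peaks left on chromosome 4. The difference in regions with all 6 lists was -12.0 points. Overlap differences were -74.5 points for H3K27ac over H3K4me1, -62.2 for H3K4me3 over H3K4me1 and -35.9 for JIL-1 over H3K9acS10ph.

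With lists of equal length, density ratios were 0.169 for H3K4me1, 0.197 for H3K4me3, 0.253 for H3K9acS10ph and 0.792 for JIL-1 (0.526 to 1.15), covered ratios 0.154, 0.125 and 0.153 for the first 3, and width ratios 0.928 for H3K4me1, 0.662 for H3K4me3, 0.573 for H3K9acS10ph and 0.756 for JIL-1. The lacking share was 95.2%, the all-6 difference -13.4 points, and overlap differences -58.6 for H3K27ac over H3K4me1, -46.9 for H3K4me3 over H3K4me1, -37.6 for JIL-1 over H3K9acS10ph and 13.8 for H3K9acS10ph over H3K27ac. H3K4me3 over H3K27ac turned to -3.15 and H3K9acS10ph over H3K4me3 to -4.90 points.

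With 1000 bp windows, covered ratios were 1.12 for H3K27ac, 0.590 for H3K4me1, 0.444 for H3K4me3, 0.396 for H3K9acS10ph and 0.604 for JIL-1. The lacking share was 68.8%, and overlap differences were -24.8 for H3K27ac over H3K4me1, -14.9 for H3K4me3 over H3K4me1, -10.4 for JIL-1 over H3K9acS10ph, -8.13 for H3K27acS28ph over H3K9acS10ph and 31.5 for H3K9acS10ph over H3K27ac. H3K4me1 over H3K27ac turned to 0.696 points. An overlap of 50% of the shorter peak gave 32.7 for H3K9acS10ph over H3K27ac.

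Against the centromeric 2 Mb alone, density ratios were 0.931 for H3K4me1, 0.655 for H3K4me3 and 0.884 for JIL-1, covered ratios 1.11 for H3K27ac, 0.736 for H3K4me1, 0.524 for H3K4me3, 0.371 for H3K9acS10ph and 0.692 for JIL-1, and median percentiles 70.7 for H3K27ac and 27.1 for H3K4me1. Overlap differences were -23.2 for H3K27ac over H3K4me1 and 33.3 for H3K9acS10ph over H3K27ac.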
